A study of Homo sapiens with 6 samples.

Results

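The genes described here are 42 interferon-stimulated genes, genes whose transcripts accumulate in most cell types after exposure to interferon. They were chosen by gene symbol. Every probe set whose platform annotation named 1 of these symbols and no other was taken, which gave 81 probe sets for 41 of the 42 genes. STAT2 was not analysed here. Each gene was represented by its brightest probe set. A filter on dim signals left 34 of the 42 genes to be tested, among 13765 tested genes of 19775 with a probe set. The other 7 genes, RSAD2, HERC5, HERC6, IFI27, GBP1, GBP2 and XAF1, were under the filter and are given as ranges.

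RNA came from RL, an established human B lymphoid line from a follicular lymphoma, t(14,18)+ and without any treatment, so all samples share 1 line and genotype. Three-dimensional cultures called MALC, multicellular aggregates of lymphoma cells, were collected at 10 days (3 samples) and set against cells in suspension during exponential growth (3 samples). Each sample was hybridised to 1 Affymetrix U133 Plus array. Aggregation differs between the groups together with time in culture and growth phase, and these cannot be told apart. Whether samples of a group were separate cultures is not stated in the labels. The p-values therefore measure the spread between these 3 samples a group and no more, and that spread may be technical.

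The 6 arrays had median signals of 80.7 to 81.7 and within a group correlated at 0.9949 to 0.9985 on the log2 scale. The closest arrays were samples 2 and 3, with a correlation of 0.9984 for the MALC pair and 0.9985 for the suspension pair. Sample 1 stood apart from them in each group. The B cell genes MS4A1 (10852 to 14375 over the 6 arrays), CD79A (2516 to 3457) and PAX5 (5216 to 6032) were bright in all samples. Summed signals of marker probe sets were 350 to 359 in MALC and 390 to 417 in suspension for plasmacytoid dendritic cells, the professional interferon producers of blood. Their marker CLEC4C did not exceed 25.5 on any array, and the highest signal of any of their marker probe sets was 159. Of these markers 2 passed the filter, and for these 2 all MALC arrays were below all suspension arrays (33.8% of all genes). In the limma fit 1 of the 2 was lower in MALC at adjusted p under 0.05 (23.7% of all genes). The sums were 371 to 402 in MALC and 372 to 390 in suspension for monocytes and macrophages, and 763 to 780 against 820 to 840 for T and NK cells. Fibroblast markers summed to 1041 to 1129 in MALC and to 1171 to 3286 in suspension. A COL1A1 probe set read 1127 in suspension 2 and 359 in suspension 3, and 10.96 to 11.99 on the other 4 arrays. The part of these fibroblast transcripts in the results was not tested. In RNA of whole cultures, fewer cells expressing a gene and less RNA per cell cannot be told apart.

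Type I interferons bind the IFNAR1 and IFNAR2 receptor, whose kinases JAK1 and TYK2 phosphorylate signal transducers such as STAT2. IRF9 joins them in the ISGF3 complex, which binds the interferon-stimulated response element in the promoters of target genes. Interferon gamma acts through a different site, the gamma-activated sequence. The products include sensors of viral RNA, effectors that block viral replication, and the transcription factors themselves, so the system amplifies its own response. IRF1 and IRF2 also act at the same response element without interferon.

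The interferon-stimulated genes did not move as a block between MALC and suspension. Of the 34 tested, 16 rose in MALC, 1 fell (BST2) and 17 did not pass the threshold (limma, adjusted p under 0.05 over all 13765 genes). Over all genes, 19.0% rose and 23.7% fell. The median log2 change was 0.41 for the 34 genes and −0.06 for all genes, on the log2(signal + 16) scale that all log2 and fold values here use and that understates changes of dim genes. All 3 MALC arrays were above all 3 suspension arrays for 16 of the 34, the same number as the 16 that rose, and below them for 0. Among all genes these shares were 23.1% above and 33.8% below. With no filter on dim signals the 41 genes with a probe set had a median change of 0.23, and 16 rose and 1 fell. By role, the transcription factors rose in 4 of 4 tested genes and the nuclear body, PARP and other genes in 4 of 5. The IFIT family rose in 1 of 4 and the ISG15 system in 0 of 2. No test compared the roles.

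**Figure D1:**
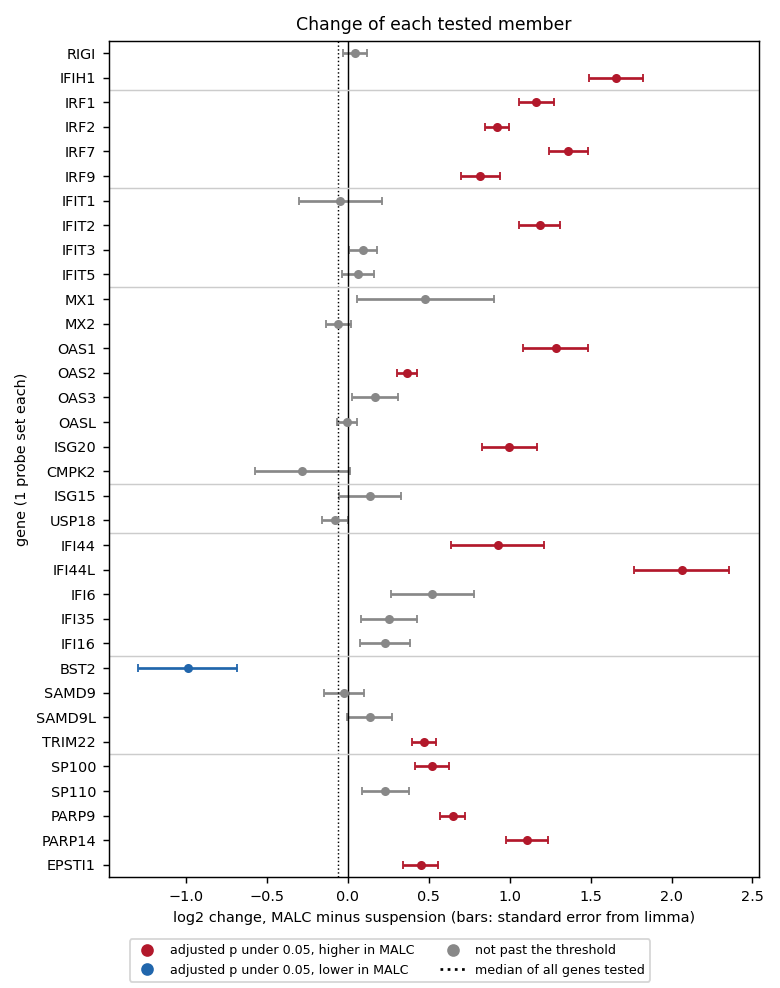
Log2 change, MALC minus suspension, of the 34 tested genes with limma standard errors as bars, ordered by role from sensors at the top. The dotted line marks the median of all genes tested, −0.06. IFI44L (2.06) and IFIH1 (1.65) lie farthest right and BST2 (−0.99) farthest left.

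The promoters of these genes show what they share in sequence. RefSeq promoters on GRCh38.p14, from 250 bases before to 50 after each gene's start, were given for 33 of the 42 genes. Both strands were searched for the core of the response element, GAAA, 2 bases of any kind, GAAA, and overlapping matches were counted. It was found in 20 of the 33 (60.6%) and in 4.38% of the 27305 genes with a promoter. The gamma-activated sequence, TTC, 3 bases of any kind, GAA, was in 10 of the 33 (30.3%) and in 9.38% of all genes. The 180 bases before the start are printed for 8 genes, 5′ to 3′ on the gene's strand, to set genes that rose beside IFIT1, which did not pass the threshold, and BST2, which fell. For the first 6, capitals mark matches to the response element core, and a run of TTTC, 2 bases, TTTC is the same core on the other strand. For IRF1 and IRF9, which had no such core, capitals mark the gamma-activated sequence.
IFI44L: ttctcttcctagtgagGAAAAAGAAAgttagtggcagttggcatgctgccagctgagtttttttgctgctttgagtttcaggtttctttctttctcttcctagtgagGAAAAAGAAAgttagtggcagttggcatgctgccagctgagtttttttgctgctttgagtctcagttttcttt
IFIH1: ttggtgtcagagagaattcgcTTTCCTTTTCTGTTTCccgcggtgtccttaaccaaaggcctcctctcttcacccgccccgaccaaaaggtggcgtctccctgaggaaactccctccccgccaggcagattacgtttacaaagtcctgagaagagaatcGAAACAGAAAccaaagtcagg
ISG20: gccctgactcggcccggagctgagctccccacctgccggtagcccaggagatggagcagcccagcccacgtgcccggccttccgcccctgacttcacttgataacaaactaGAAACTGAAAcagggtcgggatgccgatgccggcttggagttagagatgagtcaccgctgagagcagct
PARP14: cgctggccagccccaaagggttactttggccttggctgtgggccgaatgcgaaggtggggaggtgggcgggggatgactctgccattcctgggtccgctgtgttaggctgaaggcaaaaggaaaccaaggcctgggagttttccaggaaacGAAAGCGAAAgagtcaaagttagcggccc
IFIT1: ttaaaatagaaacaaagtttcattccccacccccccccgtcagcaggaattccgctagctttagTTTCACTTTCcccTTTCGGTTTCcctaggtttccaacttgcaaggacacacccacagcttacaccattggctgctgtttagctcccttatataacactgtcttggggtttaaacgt
BST2: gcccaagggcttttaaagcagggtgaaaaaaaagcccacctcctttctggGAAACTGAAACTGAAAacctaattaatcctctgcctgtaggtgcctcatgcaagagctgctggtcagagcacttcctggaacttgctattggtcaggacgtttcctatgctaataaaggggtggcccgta
IRF1: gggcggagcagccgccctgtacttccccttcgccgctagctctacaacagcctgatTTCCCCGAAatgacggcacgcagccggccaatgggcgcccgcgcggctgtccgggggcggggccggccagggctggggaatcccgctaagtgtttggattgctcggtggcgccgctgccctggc
IRF9: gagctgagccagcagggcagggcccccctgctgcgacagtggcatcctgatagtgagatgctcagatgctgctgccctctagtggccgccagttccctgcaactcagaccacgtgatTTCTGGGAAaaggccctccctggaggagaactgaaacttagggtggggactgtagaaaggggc

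These stretches lie at chr1:78620268-78620447 on the plus strand (IFI44L), chr2:162318685-162318864 on the minus strand (IFIH1), chr15:88638836-88639015 on the plus strand (ISG20) and chr3:122680659-122680838 on the plus strand (PARP14). IFIT1 is at chr10:89392443-89392622 on the plus strand, BST2 at chr19:17405631-17405810 on the minus strand, IRF1 at chr5:132490774-132490953 on the minus strand and IRF9 at chr14:24161085-24161264 on the plus strand. Each is the flank upstream of the annotated start and not transcript. Counted from the start, the 2 cores of IFI44L begin at −164 and −73, those of IFIT1 at −116 and −103, and the overlapping pair of BST2 at −130 and −124. IFIH1 has 3, at −159 and −153 on the other strand and at −21. The core was found among genes with and without a call, and no test compared them. It was in 7 of the 11 genes that rose and have a promoter in the table, in BST2, and in 8 of 14 that did not pass the threshold. IFIT2, IRF2, IRF7, OAS2 and TRIM22 also rose but have no promoter there. The gamma-activated sequence was in 5 of the 11 genes that rose, in BST2 and in 3 of the 14. With CT required directly after the core, as in many textbook elements, 12 of the 33 matched and 0.322% of all genes. A match is a string of letters, not a measured binding site. No match says only that the letters are not in this window.

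**Figure D2:**
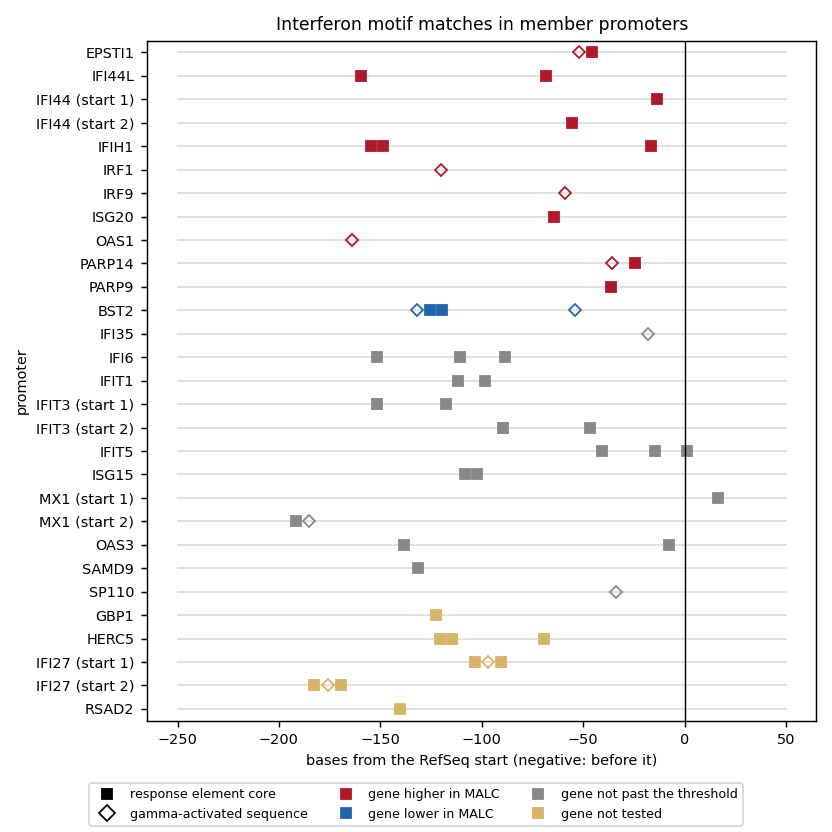
Positions of matches in the promoters that hold 1 or more, in bases from the RefSeq start, over the 250 bases before it and the 50 after it. Squares mark the response element core, open diamonds the gamma-activated sequence, and colour the gene's change. Red rows (rose) and grey rows (not past the threshold) both hold squares, which lie mostly in the last 200 bases before the start.

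Among the cytosolic sensors of viral RNA, IFIH1 (MDA5, which recognises long double-stranded RNA) rose and RIGI (which recognises short RNA with a 5′ triphosphate) did not pass the threshold. IFIH1 read 248, 262 and 263 in MALC 1, 2 and 3 and 49.3, 92.9 and 76.3 in suspension 1, 2 and 3. The MALC arrays were close together and the groups did not overlap. The means were 258 ± 8.45 in MALC and 72.8 ± 22.0 in suspension (SD, n = 3 each), a 3.15-fold difference (log2 change 1.65 ± 0.17, SE; adjusted p = 0.000456). RIGI, whose promoter had no core, read 310, 302 and 332 in MALC and 288, 327 and 300 in suspension. These ranges overlapped, with a log2 change of 0.04 (adjusted p = 0.65).

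All 4 tested transcription factors rose (19.0% of all genes), with a median log2 change of 1.04. IRF7, the factor that drives interferon alpha genes, read 398, 305 and 346 in MALC and 107, 143 and 129 in suspension. Its lowest MALC array was above the highest suspension array, and the difference was 2.57-fold (1.36 ± 0.12, SE; adjusted p = 0.000323). IRF1, an activator induced strongly by interferon gamma, read 398, 503 and 495 in MALC and 179, 209 and 207 in suspension. It rose 2.24-fold (adjusted p = 0.000351), and its other probe set changed by 0.82 (probe-set adjusted p = 0.000858). IRF2, often described as a competitor of IRF1 at the same element, rose with it. Its signals were 158, 187 and 188 in MALC and 86.2, 82.3 and 89.7 in suspension, 1.89-fold (adjusted p = 0.000283). IRF9, the DNA-binding subunit of ISGF3, read 700, 712 and 700 in MALC and 317, 438 and 434 in suspension, 1.76-fold (adjusted p = 0.00181), with suspension 1 the lowest array.

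**Figure D3:**
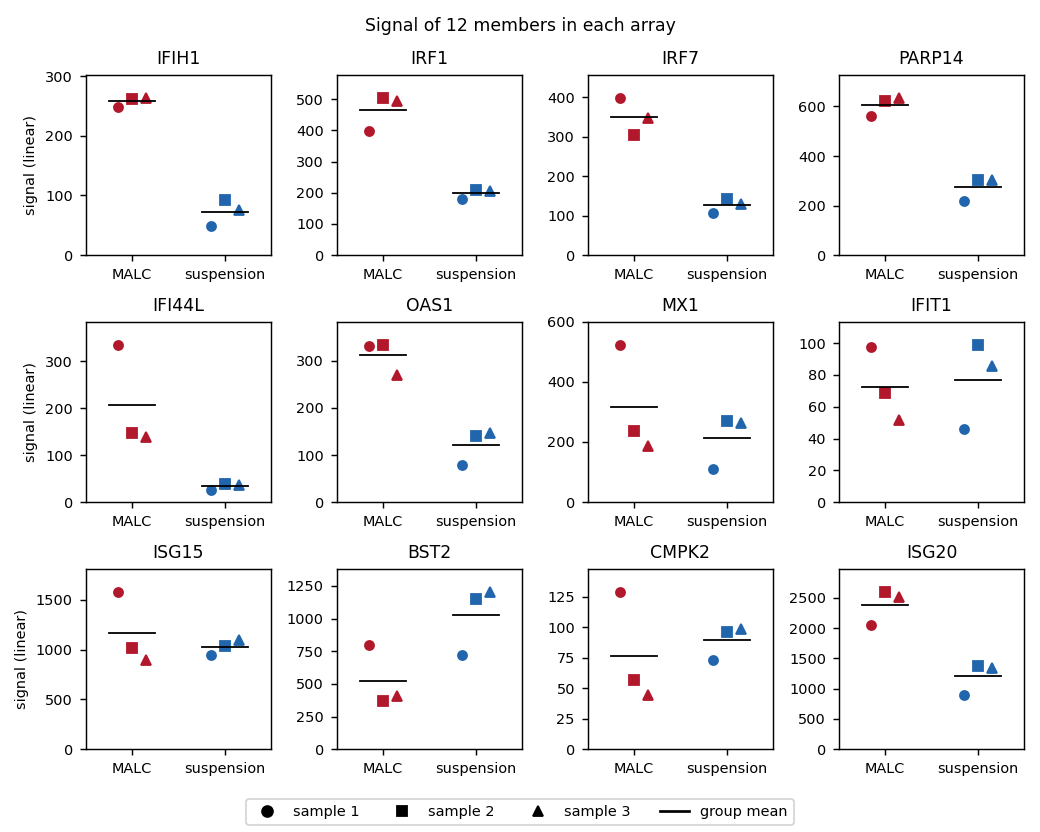
Linear signal of 12 of the genes in each array, with circles, squares and triangles for samples 1, 2 and 3 and lines for group means. In the IFIH1, IRF1, IRF7, PARP14, IFI44L, OAS1 and ISG20 panels every MALC point lies above every suspension point. In the MX1, IFIT1, ISG15 and CMPK2 panels MALC 1 is the highest MALC point and suspension 1 the lowest suspension point. The groups overlap there, and for ISG15 and CMPK2 MALC 3 lies below suspension 1. BST2 overlaps as well, with MALC 2 and 3 lowest.

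The IFIT proteins bind viral RNA that lacks the marks of host mRNA. Of the 4 tested IFIT genes 1 rose, near the 19.0% of all genes that rose. IFIT2 read 220, 313 and 261 in MALC and 95.1, 110 and 115 in suspension, without overlap. It rose 2.27-fold (1.18 ± 0.13, SE; adjusted p = 0.000531), and its other probe set past the filter changed by 0.42 (probe-set adjusted p = 0.0164). IFIT1, whose promoter has 2 cores, gave 97.8, 68.6 and 51.8 in MALC and 45.8, 98.8 and 85.5 in suspension. Its highest and lowest signals came from suspension 2 and suspension 1, and the log2 change was −0.05 (adjusted p = 0.898). IFIT3, the partner of IFIT1, read 158, 177 and 142 against 138, 152 and 152 (0.09; adjusted p = 0.407). Its dimmer probe set read 183, 136 and 109 in MALC and 26.1, 99.9 and 89.2 in suspension (0.96; probe-set adjusted p = 0.0706). At the dimmer probe set suspension 1 was far below the other suspension arrays. IFIT5 read 102, 101 and 98.0 in MALC and 78.7, 104 and 105 in suspension (0.06; adjusted p = 0.626).

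Among the MX, OAS and nuclease effectors 3 of 8 tested genes rose (19.0% of all genes). The OAS enzymes make the messenger that activates RNase L. OAS1 read 332, 333 and 271 in MALC and 79.4, 140 and 147 in suspension, with no overlap and suspension 1 again lowest. It rose 2.43-fold (1.28 ± 0.20, SE; adjusted p = 0.00204), and its second probe set changed by 1.24 (probe-set adjusted p = 0.00156). OAS2 rose less, 1.29-fold, from 107, 111 and 113 in suspension to 144, 139 and 158 in MALC (adjusted p = 0.00331). OAS3 read 195, 131 and 128 in MALC and 123, 134 and 136 in suspension (0.17; adjusted p = 0.363). For OAS3 MALC 1 was high while MALC 2 and 3 lay within the suspension signals. The OAS-like gene OASL read 192, 192 and 199 against 205, 193 and 188 (−0.0053; adjusted p = 0.95).

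ISG20, an exonuclease that degrades viral RNA, read 2053, 2597 and 2519 in MALC and 900, 1374 and 1338 in suspension. Its lowest MALC array was far above its highest suspension array, with means of 2390 ± 294 and 1204 ± 264 (SD, n = 3 each; log2 change 1.00; adjusted p = 0.00298). MX1, the GTPase most often used to mark an interferon response, read 522, 235 and 187 in MALC and 111, 269 and 265 in suspension. MALC 1 held its highest and suspension 1 its lowest signal, and MALC 2 and 3 were below suspension 2 and 3. Its log2 change was 0.48 ± 0.42 (SE; adjusted p = 0.386). MX2 was dim, at 59.9, 53.3 and 64.5 against 58.0, 61.2 and 67.9 (−0.06). CMPK2, a mitochondrial nucleotide kinase next to RSAD2 in the genome, read 129, 56.6 and 44.5 in MALC and 73.0, 96.5 and 98.5 in suspension (−0.28; adjusted p = 0.468). RSAD2 itself (viperin) was under the filter, at 27.0 to 46.3 over its probe sets and arrays.

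Neither tested gene of the ISG15 system, which couples the ubiquitin-like ISG15 to proteins and removes it, passed the threshold. ISG15 was bright everywhere, at 1576, 1014 and 898 in MALC and 949, 1040 and 1095 in suspension (0.13; adjusted p = 0.594). MALC 1 was the highest array and MALC 3 the lowest, so the groups overlapped. USP18, the protease that removes ISG15 and restrains the receptor, read 80.4, 64.2 and 69.7 against 71.5, 81.9 and 75.9 (−0.08; adjusted p = 0.432). The ligases HERC5 (19.9 to 25.6) and HERC6 (15.1 to 30.3) were under the filter.

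In the IFI family 2 of 5 tested genes passed the threshold as higher (19.0% of all genes), IFI44L and IFI44. IFI44L read 334, 148 and 138 in MALC and 25.9, 38.3 and 37.1 in suspension. Every suspension array was below the filter's signal of 53.4, so IFI44L was tested only through its MALC arrays and a difference was built into its selection. The fold was 4.18 (2.06 ± 0.29, SE). Its adjusted p was 0.00145, and 0.0014 in the fit with no filter, where that selection does not enter. Its neighbour IFI44 read 225, 126 and 94.99 in MALC and 47.0, 68.2 and 88.4 in suspension. MALC 3 and suspension 3 were close, and the rise was 1.90-fold (0.93 ± 0.29, SE; adjusted p = 0.0345). With the sample number as a replicate block the adjusted p of IFI44 was 0.0546, above the threshold. It was also above it without suspension 1 (0.108), MALC 2 (0.0734) or suspension 2 (0.0746). IFI6, a membrane protein of the endoplasmic reticulum, read 334, 227 and 185 in MALC and 110, 199 and 197 in suspension (0.52; adjusted p = 0.138). IFI35 read 204, 218 and 212 against 124, 204 and 208 (0.25; adjusted p = 0.263). IFI16, a nuclear DNA sensor, read 4227, 4320 and 4319 against 2760, 4066 and 4350 (0.23; adjusted p = 0.262). In IFI35 and IFI16 suspension 1 alone stood apart, as the low array. In IFI6 suspension 1 was low and MALC 1 was high. IFI27 was under the filter at 43.1 to 69.2, with MALC 1 highest.

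BST2 (tetherin, which holds budding virus at the cell surface) was the 1 gene that fell. It read 797, 369 and 410 in MALC and 718, 1153 and 1202 in suspension, so the groups overlapped through MALC 1 and suspension 1. The means were 525 ± 236 and 1025 ± 266 (SD, n = 3 each), a log2 change of −0.99 ± 0.30 (SE; adjusted p = 0.0331). With the sample number as a replicate block the adjusted p was 0.0524. Leaving out any 1 of the samples numbered 2 or 3, in either group, gave 0.0948 to 0.114. Averaging samples 2 and 3 gave 0.223. Other alternatives gave a larger fall. Without MALC 1 the log2 change was −1.33 (adjusted p = 0.00171), and with array weights it was −1.51 (adjusted p = 1.62e-05). Between same-numbered samples BST2 differed by 0.15 for number 1, −1.60 for number 2 and −1.52 for number 3.

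Of the other restriction factors TRIM22 rose and the SAMD9 genes did not pass the threshold. TRIM22, a ubiquitin ligase, was bright at 1516, 1559 and 1508 in MALC and 1007, 1159 and 1129 in suspension, 1.39-fold (adjusted p = 0.00209). SAMD9L, a translational repressor, read 100, 89.5 and 87.6 against 61.8, 96.0 and 94.3 (0.13; adjusted p = 0.462), and SAMD9 read 334, 448 and 402 against 349, 417 and 433 (−0.02; adjusted p = 0.898). The guanylate-binding proteins, GTPases that attack the vacuoles of intracellular pathogens, were under the filter. GBP1 read 11.0 to 19.7 and GBP2 12.3 to 33.3 over their probe sets and arrays.

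The group of nuclear body, PARP and other genes rose in 4 of its 5 tested genes (19.0% of all genes). PARP14, an ADP-ribosyltransferase, read 561, 622 and 634 in MALC and 219, 303 and 303 in suspension, 2.15-fold (1.11 ± 0.13, SE; adjusted p = 0.000715). PARP9, which acts with DTX3L, read 628, 557 and 577 against 395, 365.4 and 348, 1.57-fold (adjusted p = 0.00083). SP100, a component of PML nuclear bodies, read 1290, 1592 and 1521 against 913, 1035 and 1107, 1.43-fold (adjusted p = 0.00621). EPSTI1, counted here among the other genes, read 111, 82.4 and 78.4 in MALC and 60.7, 59.4 and 63.6 in suspension, 1.37-fold (adjusted p = 0.0126). In these 4 genes the groups did not overlap. XAF1 was under the filter at 18.0 to 33.1.

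**Figure D4:**
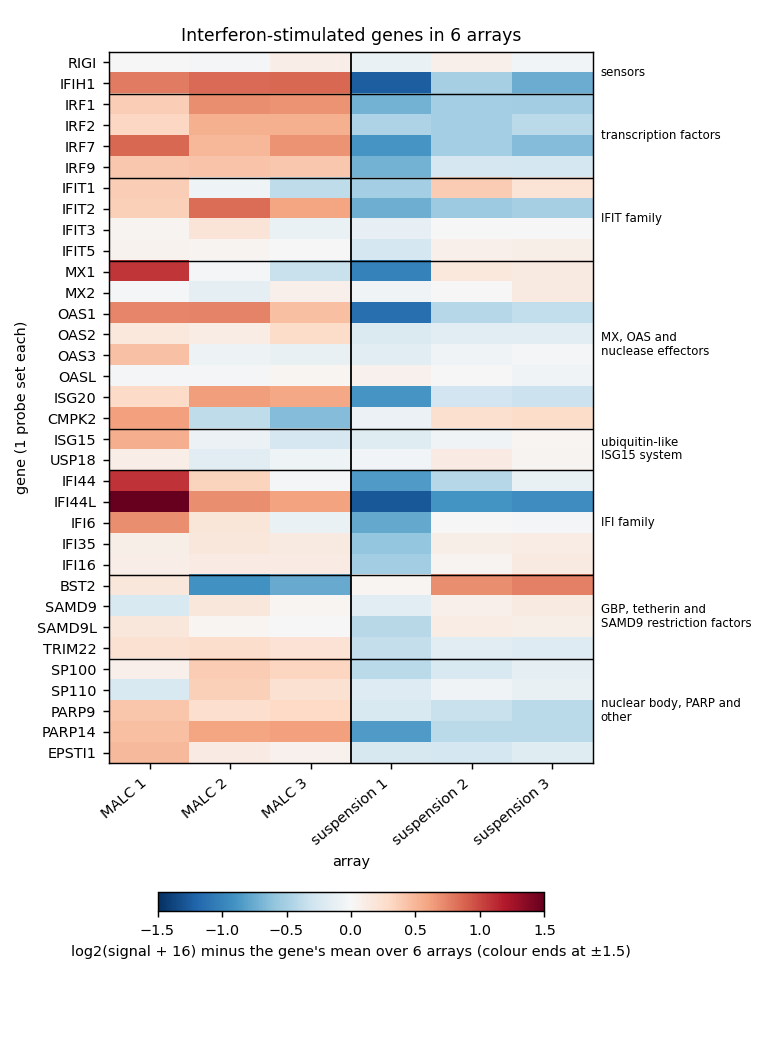
Each tested gene's log2(signal + 16) in the 6 arrays minus its mean over them, grouped by role. Rows that are red across all 3 MALC columns include IRF1, IRF2, IRF7, IRF9 and PARP14. In the suspension 1 column 23 of the 34 genes have their lowest signal, a count not made over all genes.

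Probe sets of a gene did not always move together. Of the 81 probe sets 56 passed the filter, and 26 of these rose and 1 fell in a fit of all 32768 probe sets. The shares over all probe sets were 21.2% rising and 20.4% falling. Among the 14 genes with more than 1 probe set past the filter, OAS2, PARP9, SP100 and SP110 held both calls and non-calls. SP110, a relative of SP100, had the widest split. Its brightest probe set read 727, 1104 and 1006 in MALC and 751, 830 and 794 in suspension (0.23; gene adjusted p = 0.233). Another probe set of SP110 read 323, 651 and 531 against 190, 174 and 182, 2.52-fold (1.33; probe-set adjusted p = 0.00274). A further pair changed by 0.56 and 0.48 (probe-set adjusted p = 0.0494 and 0.0296), and the last by 0.15 (0.425). As a mean of its probe sets SP110 passed as higher (0.55; adjusted p = 0.0289), and without MALC 1 its brightest probe set did too (0.41; adjusted p = 0.00364). The dimmer probe set of PARP9 changed by 0.00 (probe-set adjusted p = 0.973), against 0.65 for the brighter one. The call of PARP9 therefore belongs to 1 of its probe sets.

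The size of the difference depended on which samples were set against each other. Between MALC 1 and suspension 1, 31 of the 34 genes were higher in MALC with a median log2 difference of 0.68. Between the samples numbered 2 the count was 22 with a median of 0.24, and between those numbered 3 it was 20 with 0.11. The share of all genes above 0 was 38.9%, 41.1% and 43.5% for the same pairs, with medians of −0.07, −0.06 and −0.04. So the change of these genes was largest in the pair where fewest of all genes were higher. MX1 differed by 2.08, −0.18 and −0.47 in the 3 pairs, IFI6 by 1.47, 0.18 and −0.08, and CMPK2 by 0.70, −0.63 and −0.92. IFIH1 (2.02, 1.35 and 1.60) and IFI44L (3.06, 1.59 and 1.54) were higher in all 3.

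**Figure D5:**
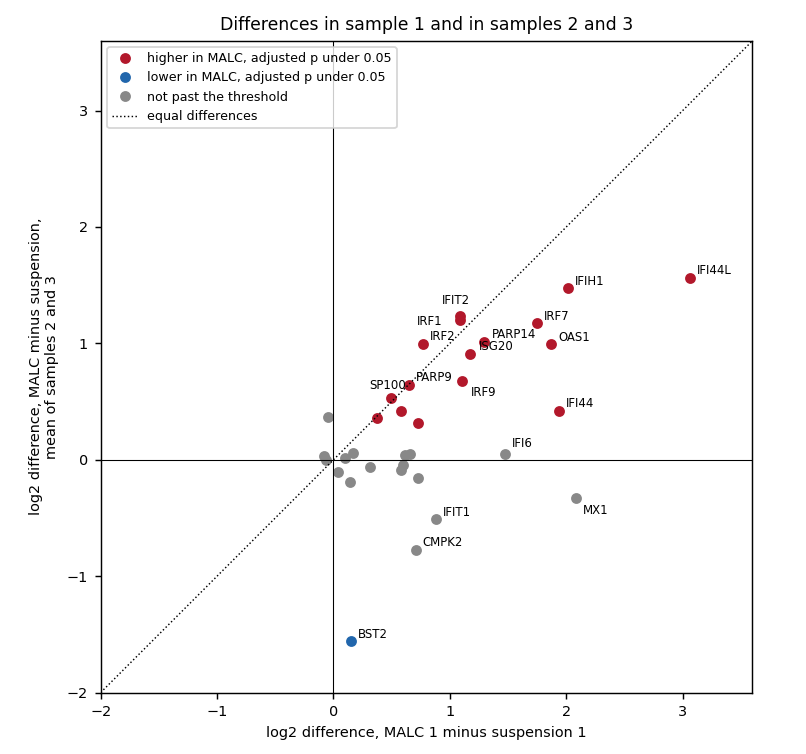
Log2 difference between MALC 1 and suspension 1 (x axis) against the mean difference of samples 2 and 3 (y axis) for the 34 genes, with a dotted line for equal differences. MX1 (x = 2.08), IFI6 and CMPK2 lie far right of the line at or below 0 on the y axis or close to it, and IRF1, IRF2 and IFIT2 lie on or above it.

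Both samples numbered 1 contributed. Suspension 1 was the lowest of the 6 arrays for 23 of the 34 genes, a count not made over all genes. Its signals lay below the mean of suspension 2 and 3 by a median log2 difference of −0.29 over the 34 genes, against 0.04 over all genes. For 11 of the 34 it was more than 0.5 lower, which held for 2.21% of all genes. MALC 1 did not differ from MALC 2 and 3 in the median (0.01 against 0.02 over all genes). For 9 of the 34 it was more than 0.5 higher, among them MX1 (1.25), IFI44L (1.14), CMPK2 (1.13) and BST2 (1.01), and this held for 2.48% of all genes. Without suspension 1 the median change of the 34 was 0.23. With both samples numbered 1 left out it was 0.18, with 17 of the 34 higher and 5 lower. Over all 13765 genes 3477 were higher and 4246 lower in that comparison. In that comparison MX1 was lower in MALC (−0.32; adjusted p = 0.00476), as were IFIT1 (−0.51), CMPK2 (−0.78), ISG15 (−0.16) and BST2. The 4 transcription factors, IFIH1, OAS1 and PARP14 kept their call there.

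No interferon gene had a clear signal. Of 21 ligand genes 18 had a probe set, the highest signal of any on any array was 69.8, and 2 passed the filter without passing the threshold. IFNB1, the first interferon made by most cells, read 26.4, 32.3 and 30.5 in MALC and 30.5, 26.5 and 40.4 in suspension. IFNG read 21.2 to 24.1 in MALC and 20.0 to 26.1 in suspension. Such dim signals set no level for these genes.

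The receptors and kinases that carry the signal rose in 4 of 8 tested genes and fell in 0, with a median change of 0.46. Over all genes 19.0% rose and 23.7% fell. IFNAR1, a chain of the type I receptor, read 313, 391 and 418 in MALC and 221, 213 and 214 in suspension, without overlap (0.74; adjusted p = 0.00142). JAK1 was bright and also separated the groups, at 2909, 3601 and 3950 against 1468, 1970 and 1920 (0.96; adjusted p = 0.00187). IL10RB, shared by the receptors of interferon lambda and interleukin 10, rose 2.77-fold, from 254 to 298 in suspension to 690 to 883 in MALC. IFNAR2 had probe sets in opposite directions. The brightest changed by −0.28 (adjusted p = 0.125, and 0.0100 with the replicate block), while the other 2 changed by 0.55 and 0.59 (probe-set adjusted p = 0.029 and 0.031). TYK2 changed by 0.13 (adjusted p = 0.175).

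Of 9 tested inhibitors of the pathway 3 were higher (19.0% of all genes) and 2 lower (23.7% of all genes), with a median of −0.02. PIAS1, a SUMO ligase, changed by 0.55, and with samples 2 and 3 averaged it did not pass (adjusted p = 0.0558). SOCS1, which blocks JAK kinases, changed by 0.50, but as a mean of its probe sets by 0.15 (adjusted p = 0.0913). Of those that fell, TRIM24 changed by −0.28 and the phosphatase PTPN11 by −0.21 (adjusted p = 0.0491). Neither fall was firm. PTPN11 lost its call in 12 of the 19 alternatives, quantile normalization and median centring among them. TRIM24 lost it in 6 of 19, with −0.089 (adjusted p = 0.282) without _s_at and _x_at probe sets. Among 17 tested adaptors and kinases of nucleic acid sensing 2 rose (19.0% of all genes) and 6 fell (23.7% of all genes), with a median of −0.15. CGAS, the cytosolic DNA sensor, changed by 0.24 and TICAM1, the adaptor of TLR3, by 0.38 (adjusted p = 0.0472, and 0.0605 with the replicate block). CGAS lost its call in 4 of 17 alternatives and TICAM1 in 10 of 19. IRAK1 changed by −0.85 and TLR9, the B cell sensor of unmethylated DNA, by −0.64. TLR9 read 284, 261 and 236 in MALC and 463, 395 and 387 in suspension.

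A longer list of 55 other interferon-induced genes had a smaller median change than the 34. Of its 39 tested genes 13 rose (the background was 19.0%) and 6 fell (background 23.7%), with a median of 0.11. LAMP3, a lysosomal membrane protein, read 231, 537 and 581 in MALC and 58.4, 139 and 144 in suspension, 3.54-fold (adjusted p = 0.00858). For LAMP3 sample 1 was the lowest array in each group. APOBEC3G, a cytidine deaminase that restricts retroviruses, rose 2.08-fold, from 169 to 203 in suspension to 356 to 454 in MALC. Its log2 change was 1.06 at that probe set and 0.53 as a mean of its probe sets. LAMP3 did not pass with samples 2 and 3 averaged (adjusted p = 0.0544). DTX3L, the partner of PARP9, was not singled out by the rule for naming genes but is given for that pairing. It read 673, 629 and 603 in MALC and 426, 400 and 403 in suspension (0.61). PNPT1, a mitochondrial RNA-degrading enzyme, fell from 3960 to 4606 in suspension to 1793 to 2662 in MALC (−0.96). ZNFX1, an RNA sensor at mitochondria, changed by −0.74, with 374, 381 and 370 in MALC and 462, 767 and 730 in suspension. With samples 2 and 3 averaged the call of ZNFX1 was lost (−0.63; adjusted p = 0.103).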

How the data were processed

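The 6 arrays hold signal intensity per probe set on a linear scale, and the submitters' processing notes name MAS5. The deposited intensity values were not renormalised, and detection calls were not used. Control probe sets (62 of 54675) were left out. From the deposited values log2(signal + 16) was taken, and probe sets with a mean at or above the 40th percentile (signal 53.4) were kept. Genes were named from the platform annotation (41091 probe sets with 1 symbol, 1801 with several, 11721 with none), and 41037 were found in the RefSeq table. The brightest probe set stood for a gene. limma 3.58.1 in R 4.3.3 (lmFit, eBayes with trend, two-sided) compared MALC with suspension, with Benjamini-Hochberg adjustment over all features tested and a threshold of 0.05. The fit was tested on simulated data. The number of arrays, 3 for each group, limits the precision.

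All 42 genes are named. From each other list the 2 largest rises and falls past the threshold are named, with IFNB1, IFNG, IFNAR1, IFNAR2, JAK1 and TYK2. Some items are not reported here. The genes and lists were chosen with earlier results of these data known.

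Deviations of same-numbered samples from their group means correlated at 0.28, 0.18 and 0.19 for numbers 1, 2 and 3. The labels do not say that the numbers pair samples, and the main fit compared the groups unpaired. The number entered as a replicate block only in an alternative, and in the differences between same-numbered samples. Numbers 2 and 3 were not told apart (0.15 and 0.20 when crossed), and across number 1 and the others the correlations were −0.24 to −0.20.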

Additional observations from a re-analysis of the deposited data

How the results depend on the processing

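Of the 17 genes called, 13 kept their call under all of the 19 alternatives in which they were tested (EPSTI1, IFI44L, IFIH1, IFIT2, IRF1, IRF2, IRF7, IRF9, ISG20, OAS1, OAS2, PARP14 and TRIM22), and BST2, IFI44, PARP9 and SP100 lost it in at least 1. PARP9 lost it without _s_at and _x_at probe sets (0.00) and SP100 with samples 2 and 3 averaged (adjusted p = 0.0657). The count of lower genes among the 34 was 1, and it was 5 with array weights, 0 with the replicate block, 5 with both samples numbered 1 left out, 0 with samples 2 and 3 averaged, and 0 to 2 when 1 sample was left out. Their median change was 0.18 with both samples numbered 1 left out. The replicate block changed the calls of BST2, IFI44, IFNAR2 and TICAM1 and no other named call. Over all genes, 5230 were lower with array weights and 4246 with both samples numbered 1 left out. With samples 2 and 3 averaged 1235 were higher and 1112 lower, and 2104 to 3626 were lower when 1 sample was left out. Of the other induced genes 6 were higher and 2 lower without _s_at and _x_at probe sets, and 2 lower with samples 2 and 3 averaged. The core followed directly by CT was found in 12 of the 33 genes with a promoter. Only changes that had not passed the threshold turned direction. RIGI was −0.029 after quantile normalization and −0.020 with array weights, and IFNAR2 was 0.59 without _s_at and _x_at probe sets and 0.29 as a mean of probe sets. With array weights MX1 was −0.092, IFIT5 −0.026, ISG15 −0.056, OASL 0.011, OAS3 −0.0026, SAMD9L −0.040 and SAMD9 0.045. With both samples numbered 1 left out MX1 was −0.32, IFIT5 −0.062, ISG15 −0.16, OASL 0.033, OAS3 −0.047 and SAMD9L −0.089. IFIT1 was 0.19 with samples 2 and 3 averaged. When 1 sample was left out ISG15 ranged from −0.10 to 0.30, OASL from −0.031 to 0.027, OAS3 from −0.0084 to 0.26, SAMD9 from −0.12 to 0.088, IFIT1 from −0.32 to 0.13, IFIT5 from −0.053 to 0.13 and SAMD9L from −0.037 to 0.23. The cause was not tested. The dim signals of the 7 genes under the filter and of the interferon genes limit what can be said of them.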
